A study of Bos taurus with 138 samples.

Results

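Bovine 8-cell embryos were compared here at the light end of the sucrose gradient, where RNA that carries no ribosome (free RNA, fractions F1 and F2) lies above RNA that sediments with single ribosomes (monosomes, fractions F3, F4 and F5). In each of the 2 gradients of this stage, A and B, the counts of F1 and F2 were summed and set against the summed counts of F3, F4 and F5, which uses 10 of the 138 libraries of the series. The series covers GV and MII oocytes and 2-cell, 8-cell, morula and blastocyst embryos, each with 2 gradients of 10 fractions and with whole-embryo or whole-oocyte transcriptomes in triplicate. The Bos taurus 8-cell embryos were produced in vitro by fertilization with semen of 1 bull, kept only when of the best morphological grade, treated with cycloheximide to hold ribosomes on mRNA and stripped of the zona pellucida. Lysates of every stage were made with cycloheximide. Each gradient held the lysate of many pooled embryos, so the spread between A and B measures pools of embryos and their gradients and not single embryos.

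A translated mRNA is first bound by the small ribosomal subunit, is joined by the large subunit to form one 80S ribosome, and moves down the gradient as more ribosomes load onto it. Free RNA holds mRNA that is stored in ribonucleoprotein particles, waiting for initiation or on its way to decay, and transcripts of mitochondria, which have ribosomes of their own. Monosomes hold mRNA with one ribosome, and short coding regions or slow initiation are known to keep mRNA there. The 8-cell stage is when the bovine embryo switches on most of its own genes while stored maternal mRNA is being cleared. The classes of fractions are the study's and are ranges of sedimentation. Ribosomal subunits also sediment in these gradients, per the study, and no class is assigned to them alone. The number of ribosomes on a given mRNA was not measured. The design asks which genes differ between the free RNA and monosome fractions, and whether that difference is the same as in the MII oocyte and the blastocyst.

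The 4 libraries of free RNA and the 6 of monosomes held 4359269 to 17342859 counts each. After summing, free RNA had 12156312 counts in gradient A and 16802207 in gradient B, and monosomes had 34543812 and 31760112. Each library was amplified on its own, so every level below is a share of its pool, given as CPM (counts scaled to the pool's total, corrected by TMM factors), and says nothing of the amount of RNA in the pool. CPM values are not corrected for transcript length, and levels are compared only within a gene. Of 16706 gene symbols, 12699 passed the filter on low counts, which asks for a minimum level in at least 2 of the 8 pools of this stage (filterByExpr), and 890 of these had no count in either free pool.

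The gradients resembled each other less in the summed free pools than in the summed monosome pools, although F2 alone was no less alike than F5. Pearson's r between A and B on log2(CPM + 1), across 12699 genes that are not independent replicates, was 0.597 in F1, 0.747 in F2, 0.805 in F3, 0.772 in F4 and 0.742 in F5. For the sums r was 0.748 for free RNA and 0.878 for monosomes. The difference between free RNA and monosomes itself, taken within each gradient, had an r of 0.197 between A and B and the same sign in both for 57% of genes. Among the 1992 genes with a mean above 100 CPM, r was 0.588 and 77.4% of genes had the same sign. Among the 1102 genes with a mean of at most 1 CPM, r was 0.0103. The plot of gradient B against gradient A shows this cloud and the gene groups that lie together within it.

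**Figure D1:**
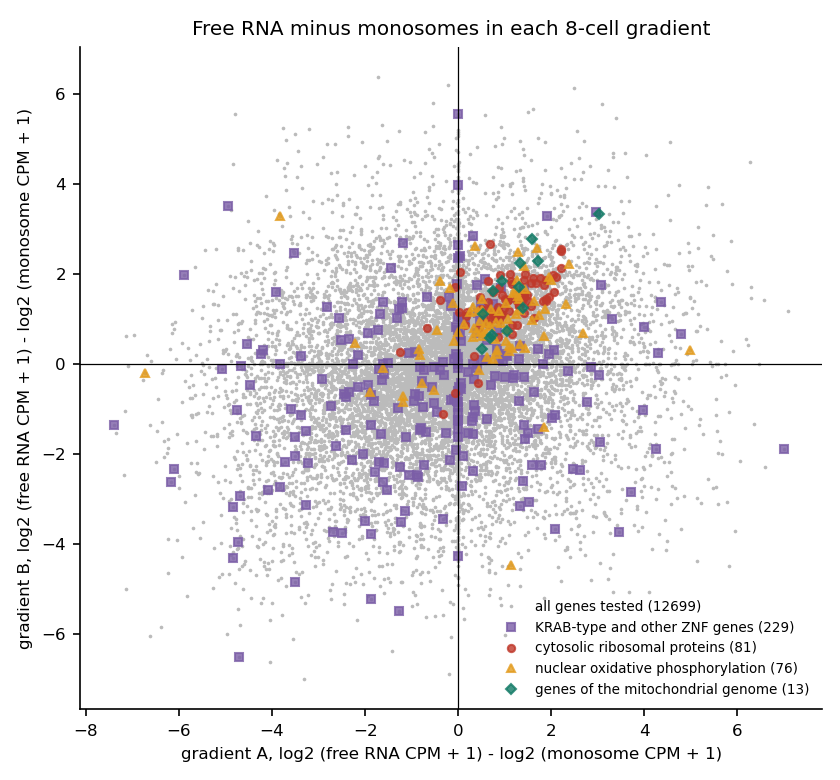
Each point is a gene, with the log2 difference of free RNA minus monosomes in gradient A on the horizontal axis and in gradient B on the vertical axis, both on log2(CPM + 1). The 12699 genes tested (grey) scatter around the origin, whereas 74 of the 81 cytosolic ribosomal protein genes (red circles) and all 13 genes of the mitochondrial genome (green diamonds) are positive in both gradients.

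With the quasi-likelihood F test of edgeR over the 8 pools, no gene reached an adjusted p of 0.05 and a fold change of 2, which is 0% of 12699 genes in either direction. The smallest adjusted p was 0.100, for MAP1LC3C. At an unadjusted p below 0.05, 357 genes (2.81%) were more than 2-fold higher in free RNA and 612 (4.82%) more than 2-fold higher in monosomes. The count depends on the tool and on the pools that set the spread. DESeq2 called 196 genes higher in free RNA and 386 higher in monosomes, and the likelihood ratio test of edgeR called 6 and 35. When the free and monosome pools of all 6 stages shared one spread, edgeR's quasi-likelihood test called 22 genes (0.152%) and 101 genes (0.696%) of 14504. Gradient letters mark one lysate, and with the gradient as a replicate block the counts stayed at 0 in both directions. Without gradient B, 68 and 219 genes were called, and without gradient A 0 and 3, with the lone pools assumed to vary like those of other stages. The common dispersion of the fit was 1.49.

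For description, and with a rule chosen after this outcome was known, a gene was called separated when both pools of one kind lay above both pools of the other and the means differed more than 2-fold on CPM + 1. Free RNA was the higher pool for 1599 genes (12.6%) and monosomes for 2319 genes (18.3%). These percentages are the background for the counts of gene groups that follow, which carry no test of their own.

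Genes of the cytosolic ribosome stood on the free RNA side. All 81 ribosomal protein genes in the table were tested, and 53 of them (65.4%) were separated toward free RNA and 0 toward monosomes. The median log2 difference of the list, free RNA minus monosomes, was 1.24, against -0.01 over all genes tested (0.11 without TMM factors), with medians of 1.10 in gradient A and 1.43 in gradient B. At an unadjusted p below 0.05 and more than 2-fold, 51 of the 81 were higher in free RNA and 0 higher in monosomes. The 25th and 75th percentiles of the list were 0.90 and 1.49.

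RPL28, of the large subunit, had 1384 and 849 CPM in the free pools of A and B and 296 and 142 CPM in the monosome pools. The 2 free values lay above both monosome values, and the fitted difference was 2.35 ± 0.44 (SE, n = 2 gradients, edgeR adjusted p = 0.199). RPLP2, an acidic protein of the ribosomal stalk, had 764 and 461 CPM in free RNA against 164 and 79.2 CPM in monosomes. RPS20, of the small subunit, had 298 and 277 CPM in free RNA against 70.8 and 90.1 CPM in monosomes. RPLP1, RPS18 and RPS19 were also among the 12 leading genes on this side, with log2 differences of 1.70, 1.64 and 1.74. The exceptions were RPL4, at 25.2 and 35.0 CPM in free RNA and 31.7 and 76.0 CPM in monosomes, RPL5 and RPS4X, with log2 differences of -0.84, -0.35 and -0.12. Mammalian ribosomal protein genes have many near-identical processed copies among which reads can be split, so single values of this family are uncertain.

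Across the whole gradient this family formed a trough in the monosome fractions. The summed level of the 81 genes was 39440 and 61550 CPM in F1 and F2 of gradient A, 24670, 20600 and 25300 CPM in F3 to F5, and 51160 to 63930 CPM in F8 to F10. Gradient B had 38550 and 40880 CPM in F1 and F2, 14690 to 18100 CPM in F3 to F5 and 54710 to 65790 CPM in F8 to F10. Monosomes were thus the lowest of the 3 classes in both gradients, and free RNA and polysomes (F8 to F10) were both high. The median log2 difference of polysomes minus monosomes was 2.10 for the same genes. It shares the monosome pools with the comparison above and is given only beside it.

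**Figure D2:**
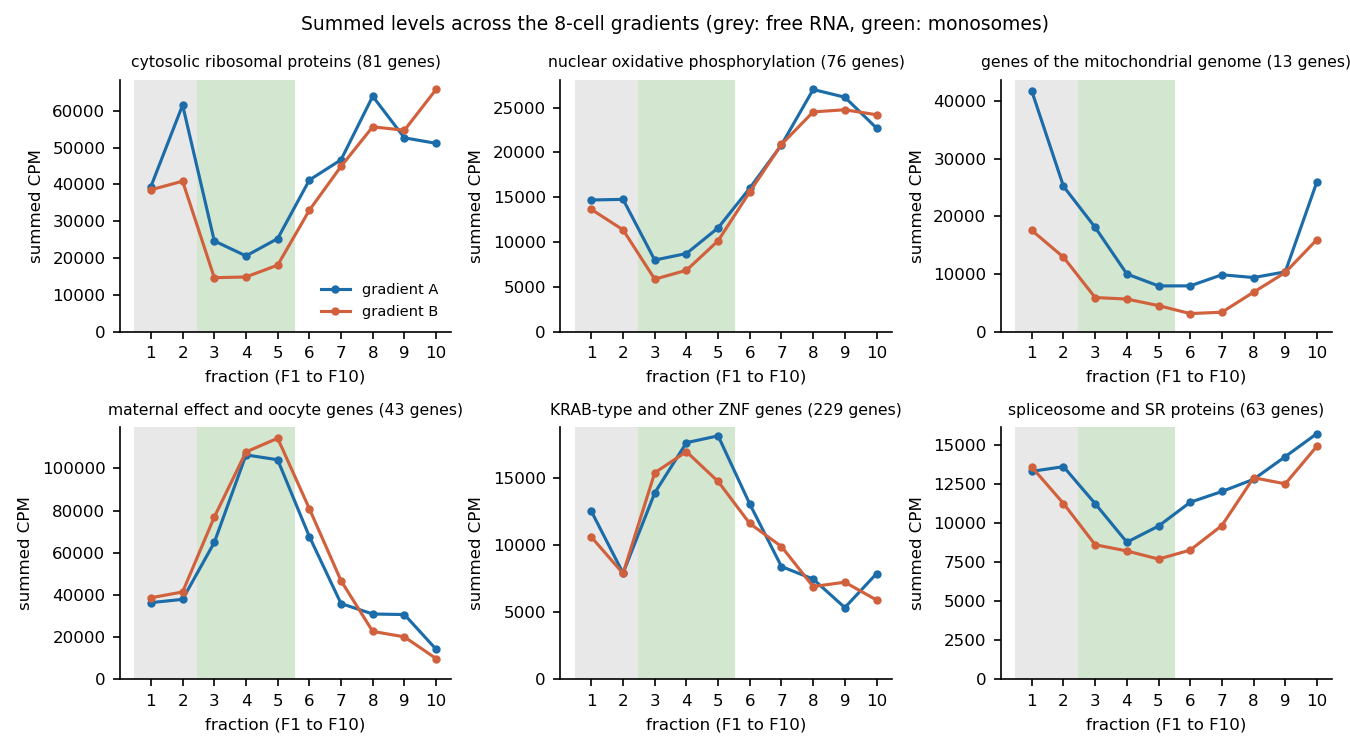
Summed CPM of 6 gene lists (vertical axes) over fractions F1 to F10 (horizontal axes) in gradients A (blue) and B (orange), with free RNA shaded grey and monosomes green. Ribosomal protein and nuclear oxidative phosphorylation genes dip in F3 to F5 and are higher again in F8 to F10. Mitochondrial transcripts are highest in F1 and high again in F10. Maternal and zinc finger genes peak in F4 or F5.

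Genes of energy metabolism showed 2 patterns. The nuclear genes of oxidative phosphorylation, whose proteins are made in the cytosol and imported into mitochondria, dipped in monosomes as ribosomal protein genes did. Of 76 tested, 27 (35.5%) were separated toward free RNA and 2 toward monosomes, and the median log2 difference was 0.89. COX6B1, a subunit of cytochrome c oxidase, had 1283 and 804 CPM in free RNA and 333 and 209 CPM in monosomes, a difference of 1.94 ± 0.39 (SE). NDUFB11 of complex I had 551 and 280 CPM in free RNA against 109 CPM in both monosome pools, and NDUFB4 had 255 and 173 CPM against 48.0 and 35.9 CPM. In F8 to F10 the list summed to 22720 to 27020 CPM in A and to 24200 to 24760 CPM in B, above every one of its free fractions.

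The 13 protein-coding genes of the mitochondrial genome, which are translated by mitochondrial ribosomes inside the organelle, were higher in free RNA in both gradients without exception, with log2 differences from 0.46 for CYTB to 3.14 for ND3 and a median of 1.17. Separated toward free RNA were 5 of 13, and 0 toward monosomes. ND3, a complex I subunit, had 1097 and 532 CPM in free RNA and 133 and 51.8 CPM in monosomes. COX3 had 10877 and 5341 CPM in free RNA and 3323 and 1092 CPM in monosomes. The gradients differed in level for these genes, since A held about as much in its monosomes (13410 CPM summed) as B in its free RNA (14580 CPM), and 8 of the 13 genes were not separated although all had the same sign. Their sum in gradient A was 41740 CPM in F1 and 7960 CPM in F5, and in gradient B it was 17590 and 4545 CPM. At the heavy end the sum was high again, at 26030 CPM in F10 of A and 16000 CPM in F10 of B. F2 held 25230 CPM in A and 12940 CPM in B.

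Proteins of the mitochondrial ribosome are encoded in the nucleus, and their 77 genes were less uniform, with 16 (20.8%) separated toward free RNA, 4 (5.19%) toward monosomes and a median of 0.56. MRPL40 had 262 and 205 CPM in free RNA and 57.1 and 49.4 CPM in monosomes. MRPS10 went the other way, with 0 and 0.169 CPM in free RNA and 13.7 and 31.3 CPM in monosomes.

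Other housekeeping lists had medians above that of all genes tested and below those of the cytosolic ribosome, nuclear oxidative phosphorylation and the mitochondrial genome. Of 63 spliceosome and SR protein genes, 21 (33.3%) were separated toward free RNA and 6 toward monosomes, with a median of 0.74. SNRPD2, a core Sm protein of the splicing particles, had 1330 and 927 CPM in free RNA and 412 and 260 CPM in monosomes, whereas PRPF19, a ubiquitin ligase of the spliceosome, had 244 and 183 CPM in free RNA and 692 and 606 CPM in monosomes. Of 57 translation factors, 15 (26.3%) were separated toward free RNA and 8 (14.0%) toward monosomes. EIF5A, the factor that helps ribosomes past stalls, had 524 and 399 CPM in free RNA and 175 and 134 CPM in monosomes, and EIF4B, a cofactor of the cap-binding helicase, had 5.41 and 23.5 CPM against 59.1 and 109 CPM. Histones gave 6 of 19 separated toward free RNA and 0 toward monosomes, with a median of 0.64, but copies of histone genes share sequence, and the library kit primes on poly(A) tails, which many histone mRNAs lack. Proteasome genes had 7 of 50 separated toward free RNA and 4 toward monosomes (median 0.27), and chaperones 8 and 7 of 51 (median 0.43). Neither median held its sign, since that of the proteasome was -0.04 within gradient A and that of chaperones -0.21 with F2 alone as free RNA. Among chaperones the heat shock genes parted, with HSP90AA1 at 993 and 1107 CPM in free RNA and 169 and 406 CPM in monosomes, and HSPA1A, the inducible HSP70, at 196 and 383 CPM in free RNA and 1364 and 1672 CPM in monosomes. Genes of the secretory translocon gave 9 (22.5%) and 4 of 40, led by CALR, a calcium-binding chaperone of the endoplasmic reticulum, at 87.5 and 67.4 CPM in free RNA and 6.13 and 2.81 CPM in monosomes.

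**Figure D3:**
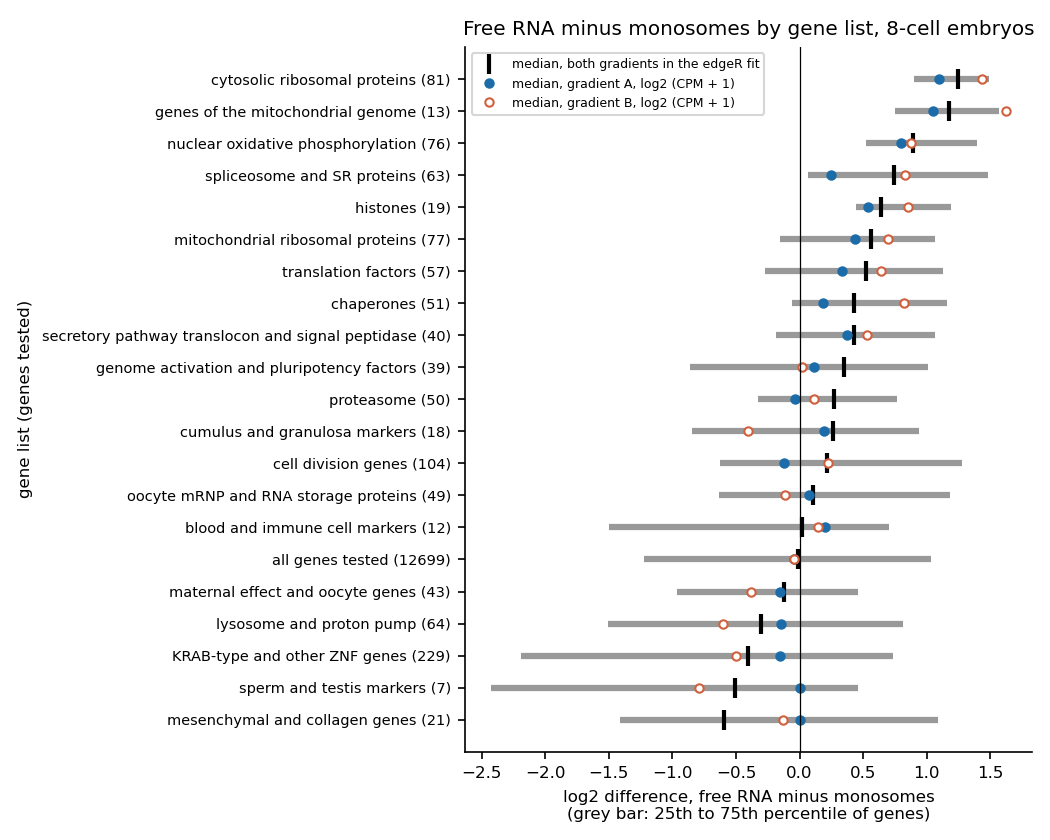
Gene lists on the vertical axis, with the number of genes tested, and the log2 difference of free RNA minus monosomes on the horizontal axis. Black ticks are medians of the edgeR fit, grey bars the 25th to 75th percentile of genes, and circles the medians within gradient A (blue) and B (orange). Ribosomal, mitochondrial and oxidative phosphorylation genes are shifted right with medians of 0.89 to 1.24, and zinc finger genes left with a median of -0.40.

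Outside these families a small set of transcripts was concentrated in free RNA and lower in monosomes, intermediate fractions and polysomes alike. FOXJ3, a forkhead transcription factor, had 485 and 345 CPM in free RNA, 53.1 and 54.0 CPM in monosomes and 58.1 and 38.2 CPM in polysomes. Its free pools lay above all other pools of both gradients, a 7.75-fold difference from monosomes (log2 2.95 ± 0.50 SE, edgeR adjusted p = 0.199). GKAP1, which anchors cGMP-dependent kinase, had 203 and 173 CPM in free RNA against 19.3 and 18.3 CPM in monosomes, and it was higher in F1 (420 and 294 CPM) than in F2 (85.6 and 81.6 CPM). FABP5, a fatty acid-binding protein, had 462 and 222 CPM in free RNA and 42.7 and 48.5 CPM in monosomes, again highest in F1. ZC2HC1A, a zinc finger gene, had 487 and 468 CPM against 96.0 and 118 CPM.

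The ferritin subunits peaked in F2. Their mRNA carries the iron-responsive element, which blocks initiation when iron is scarce, and its part here was not tested. The peak was not particular to ferritin. UBE2C, with 12080 and 8581 CPM in F2 of A and B, and CKS1B, with 6219 and 8308 CPM, were also highest there. FTL, the light chain, had the highest CPM of any gene in free RNA, 33263 and 25528, against 11271 and 6486 in monosomes and 7218 and 3898 in polysomes. Within free RNA it had 9902 and 10840 CPM in F1 and 48300 and 39300 CPM in F2. FTH1, the heavy chain, had 2163 and 841 CPM in F1, 6798 and 9906 CPM in F2, and 2022 and 1707 CPM in the monosome pools. The fitted differences were 1.73 ± 0.41 for FTL and 1.5 ± 0.42 for FTH1 (SE, edgeR adjusted p = 0.278 and 0.331). With F1 alone as free RNA the sign of FTH1 turned, to -0.36.

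**Figure D4:**
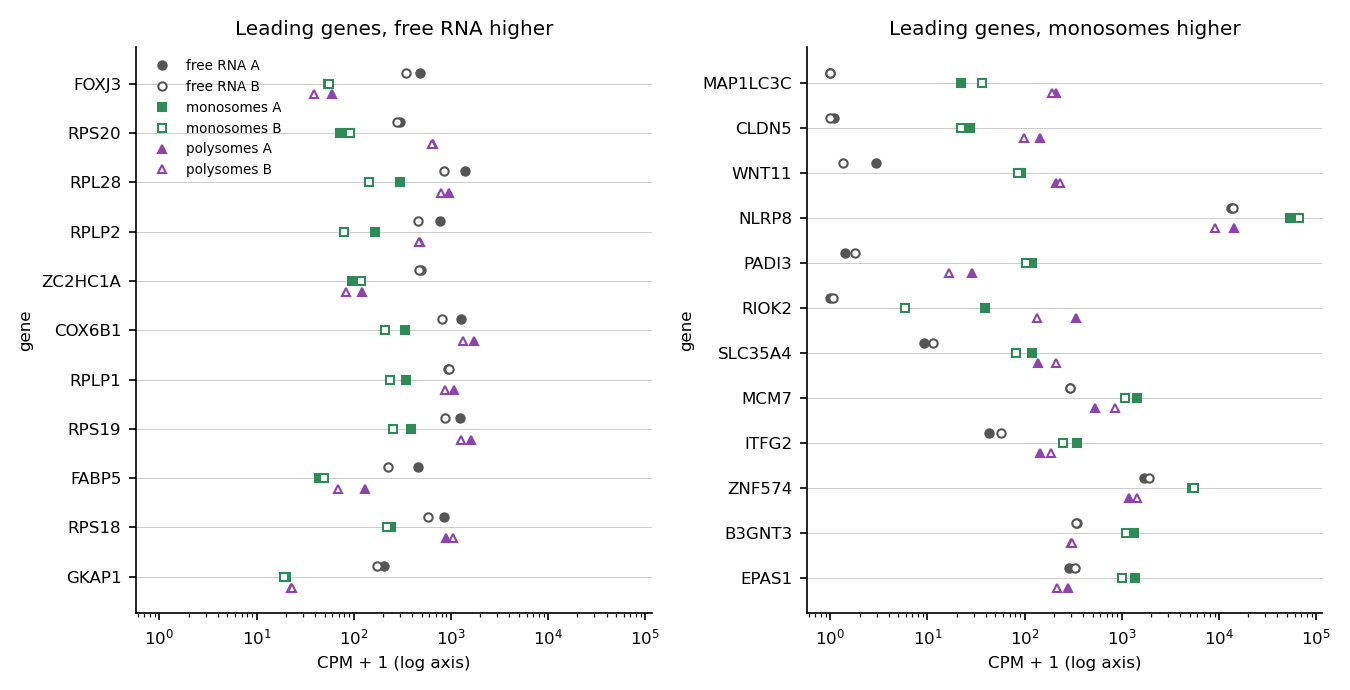
Leading genes in each direction, chosen by the smallest p among genes with pools that do not overlap and a mean of at least 20 CPM in the higher pool, with CPM + 1 on a log axis. Filled symbols are gradient A and open symbols gradient B, for free RNA (grey circles), monosomes (green squares) and polysomes (purple triangles). The choice of genes fixed that circles and squares do not overlap. MAP1LC3C has both circles at 0 CPM, and the triangles of FOXJ3 and GKAP1 lie near their squares.

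On the monosome side stood several abundant genes of the oocyte. NLRP8, an NLR family gene expressed in oocytes, had 53773 and 66691 CPM in monosomes, more than any other gene, and 13159 and 14004 CPM in free RNA. The difference was 4.43-fold (log2 -2.15 ± 0.31 SE, edgeR adjusted p = 0.133), and along gradient A its level was 12340 CPM in F2, 77440 in F4, 78820 in F5 and 3765 in F10. PADI6 and TLE6, members of the subcortical maternal complex of the oocyte, had 651 and 706 CPM and 50.4 and 42.0 CPM in free RNA, and 1943 and 1748 CPM and 185 and 145 CPM in monosomes. TACC3, a spindle protein, had 3303 and 4322 CPM in free RNA and 8120 and 11011 CPM in monosomes, and ACCSL had 1265 and 3043 CPM and 5640 and 7305 CPM. NPM2, the oocyte chromatin-decondensing protein, went the other way, at 377 and 261 CPM in free RNA and 73.1 and 95.1 CPM in monosomes. Of the 43 maternal effect and oocyte genes tested, 20 had a positive log2 difference.

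As a list, maternal effect and oocyte genes did not stand apart in number, since 9 of 43 (20.9%) were separated toward monosomes and 3 (6.98%) toward free RNA, with a median of -0.13. Their summed level was 36260 and 38840 CPM in free RNA and 84800 and 94880 CPM in monosomes, a ratio of 0.428 in gradient A and 0.409 in gradient B, and NLRP8 made up the larger part of the monosome sum. ELAVL2, an RNA-binding protein, and LSM14A, a component of storage granules, lay on the free RNA side among the 49 genes for storage proteins, at 203 and 229 CPM against 86.0 and 57.5 CPM and at 82.4 and 128 CPM against 26.6 and 37.5 CPM. That list had 10 (20.4%) separated toward free RNA, 3 (6.12%) toward monosomes and a median of 0.11, which was -0.11 within gradient B.

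Zinc finger (ZNF) genes encode DNA-binding proteins, many of them KRAB repressors, and as a list they lay on the monosome side. Of 229 tested, 59 (25.8%) were separated toward monosomes against 18.3% of all genes, and 14 (6.11%) toward free RNA against 12.6%. The background depends on level. Beside genes of the same mean CPM, 25.5% of 94 ZNF genes at 1 to 10 CPM were separated toward monosomes, against 23.7% of all genes. The share was 30.2% of 96 ZNF genes against 15.1% at 10 to 100 CPM. Above 100 CPM it was 5 of 18 ZNF genes (27.8%) against 20.6%. At up to 1 CPM it was the lower one, with 1 of 21 ZNF genes (4.76%) against 9.89%. Toward free RNA the shares were 6.38% against 9.41% at 1 to 10 CPM, and at 10 to 100 CPM 7 of 96 ZNF genes against 967 of 5587 genes. They were 0% against 1.45% at up to 1 CPM and 5.56% against 11.9% above 100 CPM. The median was -0.40 and was negative in both gradients (-0.16 and -0.50). Their summed level was 9323 and 8815 CPM in free RNA and 15800 and 14880 CPM in monosomes. ZNF574 had 1688 and 1898 CPM in free RNA and 5293 and 5574 CPM in monosomes (log2 -1.60 ± 0.28 SE), ZNF18 had 135 and 187 CPM and 495 and 478 CPM, and ZNF76 had 66.8 and 147 CPM and 361 and 406 CPM. ZNF paralogs share domains, so reads may have been split among them.

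Other leading genes on this side had varied roles. MCM7, a subunit of the replicative helicase, had 290 and 289 CPM in free RNA and 1421 and 1085 CPM in monosomes, with 535 and 847 CPM in polysomes. EPAS1, the hypoxia-inducible factor HIF-2 alpha, had 286 and 326 CPM against 1351 and 993 CPM. B3GNT3, a glycosyltransferase, had 348 and 339 CPM against 1331 and 1103 CPM, ITFG2 had 42.3 and 56.8 CPM against 345 and 246 CPM, and SLC35A4 had 8.23 and 10.3 CPM against 118 and 81.3 CPM. The adjusted p of each of these was 0.199 with edgeR.

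Several transcripts were nearly absent from free RNA. MAP1LC3C, an LC3 protein of autophagy, had 0 counts in both free pools and 20.9 and 35.5 CPM in monosomes, at least 284-fold higher when free RNA is set to a floor of 3 counts over the 2 pools. It reached 208 and 192 CPM in polysomes. WNT11, a secreted signalling protein, had 1.94 and 0.337 CPM in free RNA, 90.5 and 84.0 CPM in monosomes and 207 and 230 CPM in polysomes. PADI3, a peptidylarginine deiminase, had 0.403 and 0.786 CPM in free RNA and 116.9 and 102 CPM in monosomes, with reads in all 6 monosome libraries. CLDN5, a tight junction protein, had 1 count in free RNA and 1469 in monosomes, a ratio of 716 after scaling (95% counting interval 128 to 28290). In gradient B its monosome reads came from F5 alone (65.9 CPM, with 0 in F3 and F4). RIOK2, an atypical kinase of ribosome assembly, had 1 count and 1324 counts (ratio 645, 116 to 25500), of which 1172 were in gradient A and 152 in gradient B (37.8 and 4.90 CPM). In gradient B RIOK2 had 0 CPM in F3, 14.7 in F4 and 0.699 in F5. Single monosome libraries thus missed such genes too, and the free pools rest on only 4 libraries. MRPS10 had 3 counts and 1396 counts (ratio 227, 77.4 to 1101). The intervals are exact binomial ones and cover counting error only, since amplified reads are not independent molecules. Polysomes held 144 and 98.0 CPM of CLDN5, 340 and 134 CPM of RIOK2 and 101 and 76.4 CPM of MRPS10, above their monosome pools. For PADI3 polysomes were below monosomes, at 28.1 and 15.6 CPM.

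Genes active at genome activation lay on both sides. Of 39 factors of genome activation and pluripotency, 4 were separated toward free RNA and 5 toward monosomes. Their median was 0.35 in the fit, but 0.12 within gradient A, 0.02 within gradient B and -0.04 with F1 alone, so the list had no clear side. ESRRB, an orphan nuclear receptor of pluripotent cells, had 646 and 572 CPM in free RNA and 2711 and 1071 CPM in monosomes, and KLF17, a transcription factor of early embryos, had 130 and 436 CPM against 507 and 703 CPM. ID2, an inhibitor of basic helix-loop-helix factors, had 66.4 and 150 CPM in free RNA against 31.7 and 31.5 CPM. Of 104 cell division genes, 20 (19.2%) were separated toward free RNA and 15 (14.4%) toward monosomes. PRC1 and CENPF, proteins of the midzone and of the kinetochore, had 388 and 584 CPM and 225 and 79.8 CPM in free RNA, and 122 and 194 CPM and 12.2 and 21.9 CPM in monosomes. Of 64 lysosomal and proton pump genes, 16 (25%) were separated toward monosomes and 7 (10.9%) toward free RNA. CTSB, a lysosomal protease, had 1940 and 2196 CPM in free RNA and 4475 and 3794 CPM in monosomes. It fell just short of the 2-fold rule (1.999-fold in the fit) and is not among the separated genes.

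Not every abundant transcript parted. By the highest mean CPM, 8 genes were taken from each class. FTL, FTH1 and COX3 were separated toward free RNA, and NLRP8, TACC3, ACCSL and ZNF574 toward monosomes, while ID3, UBE2C, CKS1B, MOS and EIF1 were not separated. MOS, the kinase that holds the oocyte in metaphase, had 5315 and 5673 CPM in free RNA and 5391 and 4544 CPM in monosomes, and EIF1, an initiation factor, had 4321 and 4460 CPM and 6066 and 3797 CPM. Their log2 differences were 0.15 ± 0.30 and -0.17 ± 0.40 (SE), and their pools overlapped.

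Cumulus cells had been removed and the embryos inspected for foreign cells before freezing, per the study's methods. Markers of such cells were still counted. The 18 cumulus and granulosa markers tested summed to 507 and 491 CPM in free RNA and 405 and 496 CPM in monosomes, the 21 mesenchymal and collagen genes to 374 and 347 CPM and 298 and 208 CPM, the 12 blood and immune markers to 362 and 355 CPM and 249 and 217 CPM, and the 7 sperm and testis markers to 35.7 and 31.2 CPM and 35.9 and 48.6 CPM. In polysomes the mesenchymal list summed to 2572 and 3244 CPM, above its free and monosome pools. Separated toward free RNA and toward monosomes were, in the same order of lists, 2 and 3, 3 and 4, 1 and 1, and 0 and 1 of them. INHBB and MS4A1 were at 0 counts in both free pools, and each was seen in only 2 of the 6 monosome libraries. HBB was at 0 counts in both monosome pools and was seen in only 1 of the 4 free libraries. SERPINH1, a collagen chaperone, had 1 count in free RNA and 795 in monosomes. LGALS1, also of the mesenchymal list, had 103 and 179 CPM in free RNA and 50.1 and 51.2 CPM in monosomes. The part of such cells in the differences above was not tested, and in pooled lysates fewer cells of a type and less RNA per cell cannot be told apart. No gene of the lists of non-coding RNA hosts and of small structured RNAs was in the table, so that 0 of them could be examined.

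The same contrast was read at the other stages, in separate gradients. In the fit of 24 pools the ribosomal protein median was 1.97 at GV, 2.16 at MII, 1.79 at the 2-cell stage, 1.16 at the 8-cell stage, 0.60 at the morula stage and 0.56 at the blastocyst stage. The 8-cell value lay between those of the oocytes and the late stages and the sign was positive at every stage. Oxidative phosphorylation genes gave medians of 1.52, 1.68, 1.24, 0.82, 0.16 and 0.18 in the same order. Mitochondrially encoded genes had their lowest median at the 8-cell stage, 1.09, against 1.28 to 2.88 at the others. For these 3 lists 0 genes were called in the test of 8-cell embryos against MII oocytes or blastocysts.

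**Figure D5:**
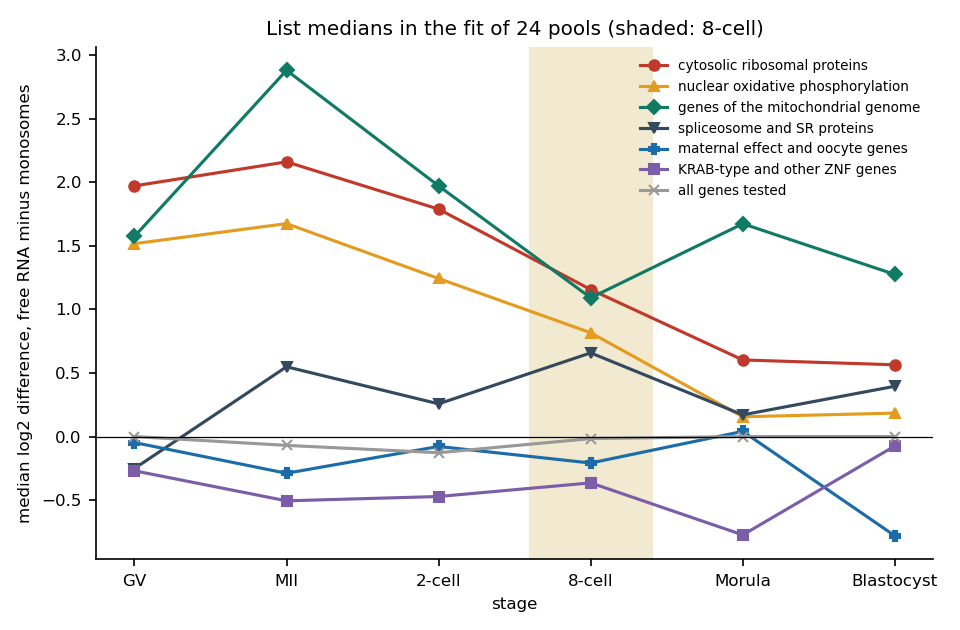
Median log2 difference of free RNA minus monosomes (vertical axis) for 6 gene lists and all genes at the 6 stages (horizontal axis) in the fit of 24 pools, with the 8-cell stage shaded. Ribosomal protein genes go from 2.16 in MII oocytes to 1.16 in 8-cell embryos and 0.56 in blastocysts, and zinc finger genes stay below 0 at every stage.

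Tested gene by gene, the difference in 8-cell embryos departed from that in MII oocytes for 13 of 14504 genes (0.0896%) and from that in blastocysts for 81 genes (0.558%), by edgeR's quasi-likelihood test of the interaction. With the gradient as a replicate block these counts were 0 and 48, without gradient A they were 2 and 3, and without gradient B 177 and 207. In 12 of the 13 and in 65 of the 81 genes the 8-cell embryo lay further toward monosomes than the other stage. This is relative, since 11 of the 13 and 37 of the 81 were called higher in monosomes at the 8-cell stage itself in this fit. LATS2, for instance, had 130 and 190 CPM in free RNA and 154 and 67.8 CPM in monosomes of 8-cell embryos. In blastocysts it had 7.51 and 33.8 CPM in free RNA and 0 CPM in both monosome pools. The 6 genes called against both stages, named after their values were seen, were MRPS10, MTFP1, TMEM126A, TRAPPC6A, PLIN3 and MARS2. With the block 0 of these 6 were called against MII oocytes and 4 against blastocysts, and without gradient A 0 were called against either. In the CPM of this fit, MTFP1, a mitochondrial fission protein, had 0.0672 and 0.368 CPM in 8-cell free RNA and 24.2 and 20.7 CPM in 8-cell monosomes, but 30.4 and 19.5 CPM in free RNA and 9.05 and 12.2 CPM in monosomes of MII oocytes. MARS2, the mitochondrial methionyl-tRNA synthetase, had 0 CPM in both 8-cell free pools and 85.2 and 57.2 CPM in 8-cell monosomes. TMEM126A, an assembly factor of complex I, had 0 and 0.0920 CPM in free RNA and 3.51 and 6.30 CPM in monosomes at the 8-cell stage, and 151 and 160 CPM and 43.5 and 80.4 CPM at MII. The single gene further toward free RNA than in MII oocytes was PAK1, a kinase of the cytoskeleton, at 117.4 and 7.45 CPM in 8-cell free RNA and 1.27 and 0.452 CPM in 8-cell monosomes.

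Genes separated at the 8-cell stage were also looked up at the others. Of the 1599 separated toward free RNA, 364 (22.8%) were separated the same way at GV, 415 (26.0%) at MII, 351 (22%) at the 2-cell, 208 (13%) at the morula and 199 (12.4%) at the blastocyst stage, where the shares over all genes were 12.3%, 10.6%, 7.6%, 7.04% and 7.91%. Of the 2318 separated toward monosomes that were in this fit, 417 (18%), 442 (19.1%), 386 (16.7%), 393 (17%) and 444 (19.2%) were separated toward monosomes in the same 5 stages, against 13.7%, 13%, 9.17%, 10.3% and 13.4% of all genes. FOXJ3, for instance, had 73.1 and 103 CPM in free RNA and 32.6 and 34.4 CPM in monosomes of MII oocytes, and NLRP8 had 1833 and 1473 CPM and 4083 and 3670 CPM. Separation depends on level, and the shares over all genes were not matched for it. The part of level in these counts was not tested.

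Whole-embryo transcriptomes gave a measure that the gradient contrast did not use. From the 2-cell to the 8-cell stage 3972 of the 11872 genes tested in both the transcriptomes and the 8-cell pools rose (33.5%) and 3866 fell (32.6%) by edgeR's quasi-likelihood test at more than 2-fold. Among genes separated toward free RNA, 34.5% rose and 30.0% fell, and among those separated toward monosomes 28.4% rose and 36.2% fell. The latter had a median transcriptome level of 6.10 CPM, against 43.3 CPM for the former and 15.4 CPM over all genes, and the part of this difference in level in the counts above was not tested. Of the 81 ribosomal protein genes 79 rose and 0 fell, of the 76 oxidative phosphorylation genes 61 rose and 2 fell, and all 13 mitochondrially encoded genes rose. Of the 43 maternal and oocyte genes 38 fell and 3 rose, and of the 229 ZNF genes 81 fell and 47 rose.

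Levels in the pools and in whole embryos were far apart for some named genes of both sides. Of 12699 genes, 1273 (10.0%) were over 16-fold higher on CPM + 1 in monosomes than in the transcriptomes, and 942 (7.42%) in free RNA. FOXJ3, at 485 and 345 CPM in free RNA, had 20.2, 22.9 and 33.8 CPM in whole embryos, and FTL, at 33263 and 25528 CPM, had 1952, 1105 and 1164 CPM. NLRP8, at 53773 and 66691 CPM in monosomes, had 63.1, 87.4 and 90.0 CPM in the 3 transcriptomes of 8-cell embryos. TACC3 had 76.1, 113 and 141 CPM there, ZNF574 20.2, 24.4 and 25.6 CPM, and PADI3 0 CPM in all 3. For each of these 6 genes the free and monosome pools all lay above the 3 transcriptomes. The 43 maternal genes summed to 5366 to 8826 CPM in the transcriptomes, below both free pools and both monosome pools. Among genes nearly absent from free RNA the reverse was seen for MRPS10, at 485, 532 and 582 CPM in whole embryos, and for RIOK2, at 434, 561 and 536 CPM. Other leading genes of the free RNA side varied in this. RPL28 had 1384 and 849 CPM in free RNA and 186, 262 and 235 CPM in whole embryos. RPLP2 had 764 and 461 CPM in free RNA and 161, 265 and 202 CPM in whole embryos. For RPS18 and FABP5 the levels were closer. RPS18 had 843 and 580 CPM in free RNA and 794, 1002 and 1020 CPM in whole embryos. FABP5 had 462 and 222 CPM in free RNA and 278, 544 and 508 CPM in whole embryos. One transcriptome library stood apart in marker lists of other cells, with 19940 CPM summed in A against 3854 and 3960 CPM in B and C for the mesenchymal list, and 2907 against 576 and 752 CPM for the cumulus and granulosa list. The transcriptomes came from other embryos of the same batch and were scaled to their own totals, and no test was made between them and the pools.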

How the data were processed

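The authors quantified reads of each library per gene with Salmon on an Ensembl bovine annotation and deposited expected counts for 16706 gene symbols in 138 libraries, without normalization (11.7% of values are not whole). The sources used here name different genome builds, and no Salmon version. Columns were matched to samples by name. Counts were summed per gradient, rounded, and tested in R 4.3.3 with edgeR 4.0.16 (TMM, filterByExpr, quasi-likelihood F test, two-sided, Benjamini-Hochberg adjusted p below 0.05 and more than 2-fold) on 8 pools, namely free RNA, monosomes, intermediate (F6 and F7) and polysomes of gradients A and B. Interactions between stages used 24 pools and transcriptomes 18 libraries. DESeq2 1.42.0, limma 3.58.1 and the settings given at the end were alternatives. Tests were checked on simulated counts with a smaller spread than these data have (common dispersion 1.49). That check therefore does not measure power or error at the spread of these data.

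Letters pair pools because 10 fractions came from each lysate. Deviations of A from B in free RNA and monosomes correlated at r = 0.0478. Nothing ties the transcriptome letters to each other.

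Gene lists and members were chosen with earlier results of these data known. Named genes were the 12 per direction with the largest change past the threshold, filled by smallest p where none passed (mean of at least 20 CPM, pools not overlapping), up to 4 per list by smallest p, and the 8 with the highest mean CPM in each class. An SE is that of the edgeR fit. Figures were drawn with matplotlib in Python. Sequences were not analysed here. One gene that met the rule is not reported here.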

Additional observations from a re-analysis of the deposited data

Results flagged for a closer look

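Of the named genes, PADI3 and MRPS10 passed edgeR's quasi-likelihood test of a difference between stages, without the replicate block. For PADI3 the log2 difference of free RNA minus monosomes in 8-cell embryos minus that in MII oocytes was -6.70 (adjusted p = 0.0352). The call was lost with the gradient as a replicate block (edgeR adjusted p = 0.135) and without gradient A (0.135), and kept without gradient B (0.0412). In the CPM of the fit of 24 pools it had 51.9 and 46.9 CPM in free RNA and 86.5 and 94.5 CPM in monosomes of MII oocytes, against 0.336 and 0.644 CPM and 102 and 89.0 CPM in 8-cell embryos. For MRPS10, a protein of the small mitochondrial ribosomal subunit, the same difference was -7.72 against MII oocytes (adjusted p = 0.0446) and -9.02 against blastocysts (adjusted p = 0.0161). With the block the call against MII oocytes was lost (edgeR adjusted p = 0.166) and that against blastocysts kept (0.0455), without gradient A both were lost (0.117 and 0.0584), and without gradient B both were kept (0.0303 and 0.0169). Its free pools held 12 and 32.9 CPM in MII oocytes and 77.7 and 124 CPM in blastocysts, and 0 and 0.138 CPM in 8-cell embryos. The log2 values of genes this close to 0 counts depend on the prior count of the fit and are no bounds.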

How the results depend on the processing

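Calls of single genes depended on the test and on the gradient. Against 0 genes in both directions, the likelihood ratio test of edgeR called 6 genes higher in free RNA and 35 higher in monosomes, DESeq2 196 and 386, no filter on low counts 21 and 87, and pools of all 6 stages 22 and 101. Higher in monosomes were 2 genes in the equal-weight limma fits with pseudocounts of 1 and 0.25 CPM, 23 with F1 alone, 1 with F2 alone and 2 with F4 and F5, and these settings called 0 in free RNA. Leaving out one gradient gave 0 to 68 and 3 to 219, the higher counts without gradient B; the lone pools are then assumed to vary like those of other stages. The gradient as a replicate block, no TMM factors, only the free and monosome pools, and thinned pools kept 0 in both directions. Genes separated toward monosomes numbered 4002 with F1 alone, against 2319. Interactions against MII and blastocysts (13 and 81 genes) numbered 0 and 48 with the block, 792 and 1321 with DESeq2, 2 and 19 without TMM factors, and 2 to 177 and 3 to 207 without one gradient, the lower counts without gradient A. The 8808 transcriptome calls became 8780 with a block for the letter and 8499 to 9412 over all alternatives. The cause of these changes was not tested.

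Of 104 named genes, log2 differences turned in sign with F1 alone for PSMB3 (-0.058), ODF2 (-1.31), ID3 (-0.58), UBE2C (-0.51), MOS (-0.14), FTH1 (-0.36) and CKS1B (-0.34), with F2 alone for CAPRIN1 (-0.77), PRC1 (-0.10), SPCS3 (-0.36) and EIF1 (0.33), with F4 and F5 for EIF1 (0.49), and in limma for ODF2 (-0.11 and -0.40). Over the 2 omissions of a gradient GAPDHS ranged from -10.78 to 7.77, ODF2 from -10.04 to 1.97, MOS from -0.072 to 0.22 and EIF1 from -0.54 to 0.14. Without TMM factors 6 list medians moved, to 1.04 for nuclear oxidative phosphorylation, 0.42 for the proteasome, 0.52 for genome activation, 0.59 for the translocon, -0.40 for mesenchymal and 0.19 for blood markers. Of the list medians in the text of the report, the sign turned with F1 alone and in limma for the proteasome (-0.06 and -0.08) and genome activation (-0.04 and -0.11), and with F2 alone for chaperones (-0.21) and storage proteins (-0.28). With 2 gradients, small differences were not detectable. Large ones also missed the threshold of the main test, such as MAP1LC3C with 0 counts in free RNA and 1749 in monosomes. The 0 calls therefore do not show that large differences are absent.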
